A study of Macaca mulatta with 60 samples.

Results

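The transcript of IFI27L1, a relative of the interferon alpha-inducible gene IFI27, is 1 of 26149 transcripts on a custom rhesus macaque (Macaca mulatta) array. It carries the identifier ENSMMUT00000003381, and its name comes from the description that the study gave this identifier. It was selected on its measured levels, which were high or low in the same fetus in every tissue, and on its difference between BPA exposed and matched control fetuses in the exposure windows. All values for this transcript are therefore given as a description with no test.

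Both ventricles of the heart (left, LV, and right, RV), both atria (LA and RA) and the biceps femoris muscle (BFM) of 12 female fetuses were measured, 1 array for each tissue of each fetus and 60 arrays in all. The dams received a daily piece of fruit with Bisphenol A (BPA, deuterated, 400 µg per kg body weight in ethanol), or with ethanol alone as the vehicle control, during early gestation (EG, from day 50 to about day 100) or late gestation (LG, from about day 100 to term). Fetuses 1 to 3 were EG controls, 4 to 6 had EG BPA, 7 to 9 were LG controls and 10 to 12 had LG BPA, so each group held 3 fetuses, and each fetus was measured once per tissue. The labels name no line, allele or transgene for any group, and no genotype of the fetuses was available here. EG fetuses were delivered by caesarian section near the end of the exposure and LG fetuses were collected after birth at term, so fetal age, delivery and exposure window cannot be told apart between the EG and LG groups.

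Interferons are secreted proteins that cells release on sensing virus or foreign nucleic acid. Type I interferons bind a receptor on the cell surface and switch on a large set of interferon-stimulated genes. The IFI27 family (also called the ISG12 family) encodes small hydrophobic proteins that have been placed at mitochondria and other membranes. IFI27 itself is among the most interferon-responsive genes in blood and many tissues, while IFI27L1 is a less studied relative of it. In the order of protein-coding genes of the rhesus assembly T2T-MMU8v2.0, IFI27L1 (ENSMMUG00000002383) lay directly between DDX24, an RNA helicase gene, and IFI27, with IFI27L2 as the next gene after IFI27. Whether the array's probes for ENSMMUT00000003381 also bind these close relatives was not tested, since probe sequences were not used here, and the pairing of the transcript with the gene rests on the name alone.

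Every level below is a deposited log2 value on a scale set within a tissue. IFI27L1 levels were compared between fetuses within a tissue, because the tissues were normalized separately. A difference of 1 on this scale is a fold change of 2.

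In LV, the IFI27L1 level was 5.53, 4.84 and 4.03 in EG control fetuses 1 to 3 and 6.96, 6.50 and 8.29 in EG BPA fetuses 4 to 6. In the LG groups of the same chamber it was 8.49, 5.66 and 6.02 in control fetuses 7 to 9 and 6.43, 5.47 and 6.28 in BPA fetuses 10 to 12. Fetuses 7 and 6 had the highest LV levels and fetus 3 the lowest. The EG BPA levels lay above all EG control levels, while the LG groups overlapped.

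In RV, the EG control levels were 5.16, 5.79 and 4.63 and the EG BPA levels 6.89, 6.85 and 7.89. The LG control levels in RV were 8.81, 6.37 and 5.51 and the LG BPA levels 5.37, 5.65 and 7.09. Fetus 7 was again highest, followed by fetus 6, and fetus 12 of the LG BPA group stood higher here than in any other tissue relative to the other fetuses. The EG groups did not overlap, and the LG groups did.

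In LA, the EG control levels were 6.00, 6.93 and 6.01 and the EG BPA levels 8.70, 8.69 and 9.35. The LA levels of the LG controls were 9.21, 6.65 and 7.10 and those of the LG BPA fetuses 6.97, 7.31 and 6.70. Fetuses 4 to 7 all lay at or above 8.69 in this chamber and the other 8 fetuses at or below 7.31.

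In RA, the levels in fetuses 1 to 3 were 6.67, 7.21 and 6.03 and in fetuses 4 to 6 they were 8.88, 8.72 and 9.40. The RA levels in fetuses 7 to 9 were 9.32, 6.69 and 7.45 and in fetuses 10 to 12 they were 7.53, 7.01 and 6.63. The order was close to that of LA, with fetuses 6 and 7 on top and fetus 3 at the bottom.

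In BFM, a skeletal muscle, the levels were 6.93, 7.11 and 6.71 in the EG controls and 7.96, 8.32 and 8.64 in the EG BPA fetuses. They were 8.54, 6.92 and 6.94 in the LG controls and 7.01, 6.57 and 6.78 in the LG BPA fetuses. The spread over fetuses was narrower than in the heart, and fetuses 4 to 7 again lay above all others. Set against all transcripts of its own array, IFI27L1 ran from percentile 21.0 (LV of fetus 3) to percentile 79.0 (RV of fetus 7), so it was neither among the dimmest nor among the brightest transcripts.

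**Figure D1:**
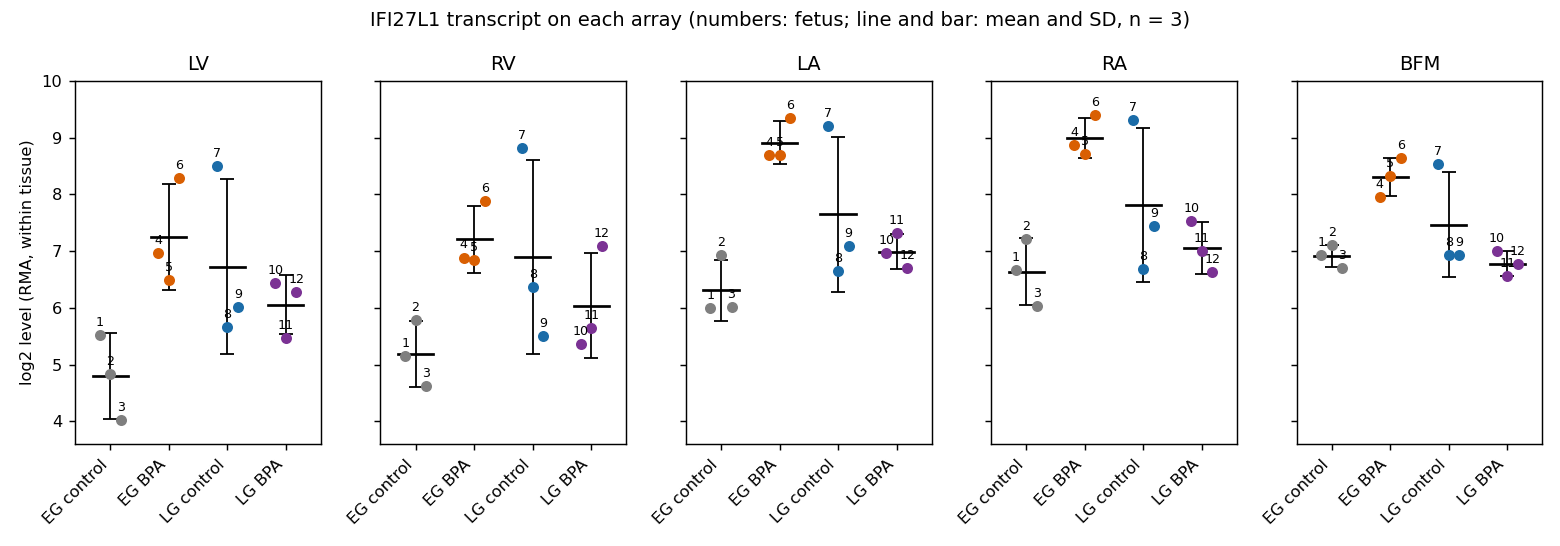
IFI27L1 log2 level on each of the 60 arrays (y axis, RMA values normalized within a tissue), in 1 panel per tissue with the 4 groups on the x axis. Points are arrays with their fetus number, and lines and bars give the group mean and SD (n = 3). In all 5 panels the EG BPA points (fetuses 4 to 6) lie above the EG control points, and fetus 7 lies above the other LG fetuses.

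The fetuses with the highest levels were the same in all 5 tissues, apart from fetus 12 in RV. Each level was expressed as its deviation from the mean of the 12 fetuses in that tissue, and the deviations of a fetus were averaged over the 5 tissues (± SD over tissues, which share the animal and are not independent). Fetus 7, an LG control, was highest at 1.87 ± 0.52, and fetus 6 of the EG BPA group followed at 1.71 ± 0.31. These neighbours did not differ beyond their spread, and they held the first and second rank in every tissue, with fetus 7 above fetus 6 in 2 of 5 tissues.

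Fetuses 4 and 5, also EG BPA, came next at 0.88 ± 0.34 and 0.81 ± 0.40, and did not differ beyond their spread from each other. Fetus 6 exceeded fetus 4 in 5 of 5 tissues, by 0.84 on average. The widest step of the order, 1.12, separated fetus 5 from fetus 12. Fetus 5 exceeded fetus 12 in 4 of 5 tissues, the exception being RV.

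Below that step, 6 fetuses lay close together. They were fetuses 12, 10 and 11 of the LG BPA group (-0.31 ± 0.71, -0.34 ± 0.45 and -0.60 ± 0.26), LG control fetuses 9 and 8 (-0.40 ± 0.26 and -0.54 ± 0.38) and EG control fetus 2 (-0.62 ± 0.43). The neighbours among them differed by no more than 0.14, which is less than the spread of any of them over tissues. EG control fetuses 1 and 3 ended the order. Fetus 1 lay 0.32 below fetus 2 and fetus 3 lay 0.57 below fetus 1, each in 4 of 5 tissues, and fetus 3 reached -1.52 ± 0.55. The 3 LG controls therefore did not lie together, since fetus 7 was at the top of the order and fetuses 8 and 9 were in its lower part.

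**Figure D2:**
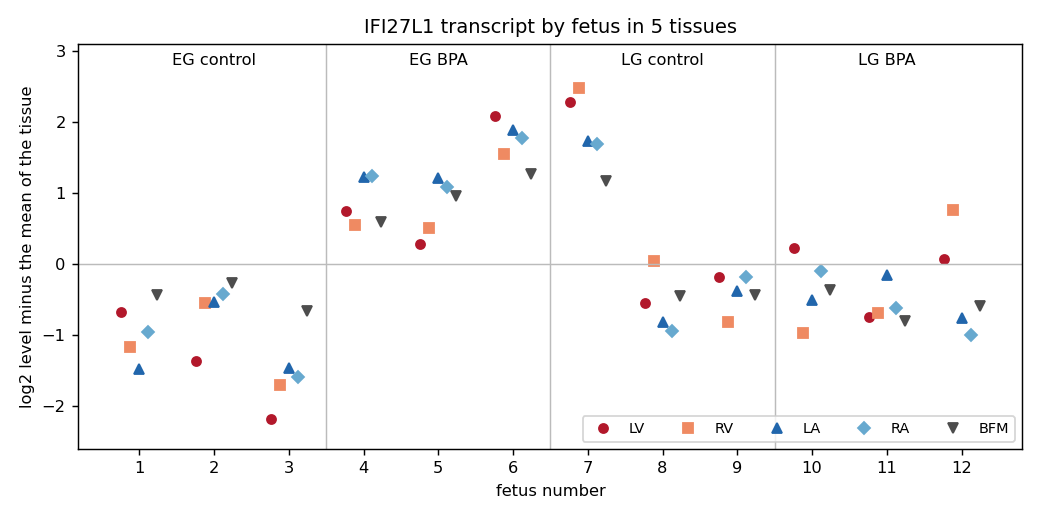
IFI27L1 level of each fetus (x axis, fetus number, with the group above) minus the mean of the 12 fetuses in the same tissue (y axis, log2), with 1 symbol per tissue. Fetuses 4 to 7 lie above 0 in all 5 tissues and fetuses 1 to 3 lie below 0 in all 5.

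How far the differences between fetuses recurred over tissues was described by Pearson's correlation between each of the 10 pairs of tissues over the 12 fetuses. The points of each pair share the animal, its group and its window, and the correlations carry no p since the transcript was chosen for this pattern. IFI27L1 averaged 0.870 over the 10 pairs. The lowest pair was RV with RA (0.783) and the highest was LA with RA (0.974), and the pairs that joined BFM with a heart chamber ran from 0.805 (RV) to 0.946 (RA). The median over all 26149 transcripts was 0.101 and the 99th percentile was 0.783, which placed IFI27L1 at rank 65.

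Fetus 7 carried much of the recurrence within the groups. When each level was taken as its deviation from the mean of its group, the average correlation was 0.816 (rank 37 of 26149), and 0.451 (rank 1395) with fetus 7 left out. Within the windows, it was 0.959 over the 6 EG fetuses, which includes the group difference that chose the transcript, and 0.862 over the 6 LG fetuses, which became -0.06 over the 5 LG fetuses without fetus 7. Over all groups, leaving out 1 fetus at a time gave 0.829 (without fetus 7) to 0.907 (without fetus 12). On ranks (Spearman) it was 0.758, at rank 231. Among the 5 LG fetuses other than fetus 7, single pairs of tissues ran from -0.89 to 0.61. These fetuses thus had no order common to all 5 tissues.

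**Figure D3:**
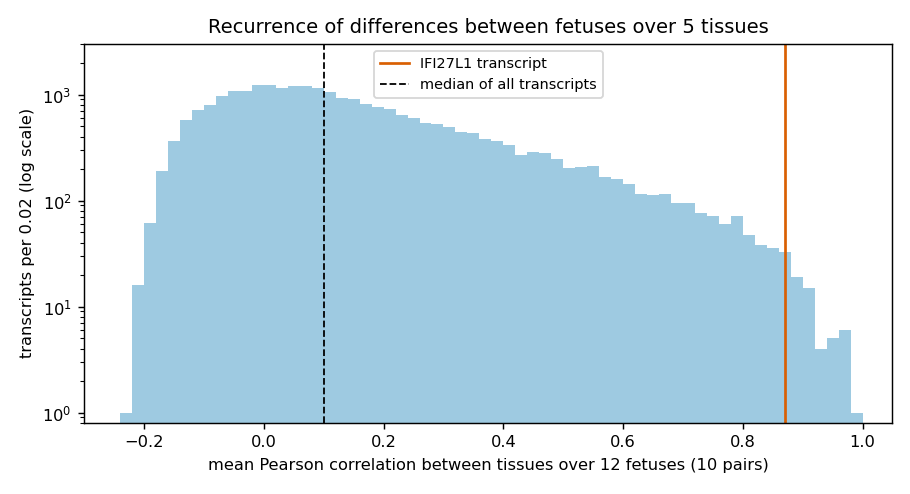
Number of transcripts (y axis, log scale) by the mean Pearson correlation of their levels between tissues over 12 fetuses (x axis, mean of 10 tissue pairs), for all 26149 transcripts. The solid line marks IFI27L1 at 0.870 and the dashed line the median of all transcripts at 0.101.

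The comparison of EG BPA with EG control fetuses asked whether BPA given to the dam in early gestation altered the fetal transcript. In LV, the IFI27L1 mean was 4.80 ± 0.75 (SD, n = 3) in EG controls and 7.25 ± 0.93 (SD, n = 3) after EG BPA, a log2 fold change (LFC) of 2.45 (SE 0.76) or 5.47-fold. The means in LA were 6.31 ± 0.54 (SD, n = 3) and 8.91 ± 0.38 (SD, n = 3), with an LFC of 2.60 (SE 0.54) or 6.05-fold. In RA, the means were 6.64 ± 0.59 (SD, n = 3) and 9.00 ± 0.36 (SD, n = 3) and the LFC was 2.36 (SE 0.56) or 5.13-fold. The atria had the narrowest EG BPA groups of the heart.

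In RV, the EG means were 5.19 ± 0.58 (SD, n = 3) and 7.21 ± 0.59 (SD, n = 3), with an LFC of 2.02 (SE 0.71) or 4.04-fold. BFM had a difference from 6.92 ± 0.20 (SD, n = 3) to 8.31 ± 0.34 (SD, n = 3), an LFC of 1.39 (SE 0.38) or 2.62-fold. Averaged over the 5 tissues of a fetus, the level was 5.97 ± 0.45 (SD, n = 3) in EG controls and 8.14 ± 0.50 (SD, n = 3) after EG BPA, an LFC of 2.16 (SE 0.52) or 4.48-fold. These SEs come from limma's moderated fit over the 4 groups, whose spread includes that of the LG controls.

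All 3 EG BPA fetuses exceeded all 3 EG controls in each of the 5 tissues. Among the transcripts that varied enough to be tested, such a complete separation in the same direction was met by 5.69% (LV), 10.5% (RV), 4.01% (LA), 2.66% (RA) and 5.46% (BFM). In all 5 tissues at once it was met by 1 transcript of 26149, or 0.00382%, and that transcript was IFI27L1. Nothing is read from this count, since the contrast was part of the choice of the transcript. With any 1 fetus left out, the EG difference stayed between 1.93 and 2.83 (LV), 1.67 and 2.32 (RV), 2.38 and 2.91 (LA), 2.06 and 2.65 (RA) or 1.23 and 1.56 (BFM). In bulk tissue, more cells that carry a transcript and more of it per cell cannot be told apart.

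The LG comparison asked the same of BPA given from about day 100 to term. The IFI27L1 means of LG control and LG BPA fetuses were 6.73 ± 1.54 and 6.06 ± 0.52 in LV (SD, n = 3 each). RV gave 6.90 ± 1.71 and 6.03 ± 0.93, and LA gave 7.65 ± 1.36 and 6.99 ± 0.31. The RA means were 7.82 ± 1.35 and 7.05 ± 0.45, and those of BFM 7.47 ± 0.93 and 6.78 ± 0.22. The differences of BPA minus control were -0.67 (LV), -0.87 (RV), -0.66 (LA), -0.76 (RA) and -0.69 (BFM), each smaller than the SD of the controls. The groups overlapped in all 5 tissues.

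The LG values depended on single fetuses, and their direction in LV, RV and LA on control fetus 7. Leaving out BPA fetus 11 gave -0.37 in LV, and leaving out BPA fetus 10 or 12 gave -0.53 or -1.39 in RV. Without fetus 7, the LG differences were 0.22 (LV), 0.09 (RV), 0.12 (LA), -0.01 (RA) and -0.15 (BFM). Averaged over the 5 tissues, the LG difference was -0.73 with all fetuses, 0.05 without fetus 7 and 0.06 with group medians. Leaving out another control moved it away from 0. Without fetus 8 it was -1.15 in the mean of 5 tissues, -1.16 in LA and -1.33 in RA, and without fetus 9 it was -1.56 in RV. With group medians in place of means, the LG difference was 0.26 (LV), -0.73 (RV), -0.13 (LA), -0.45 (RA) and -0.16 (BFM). With array weights, which give less weight to arrays that stand apart from their group, it was -0.15 in LV and -1.55 in RV. The weights of RV had not converged when the iteration stopped, and they ran from 0.0036 (fetus 8) to 12.0 (fetus 10, whose RV level was the lowest of the LG BPA fetuses).

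**Figure D4:**
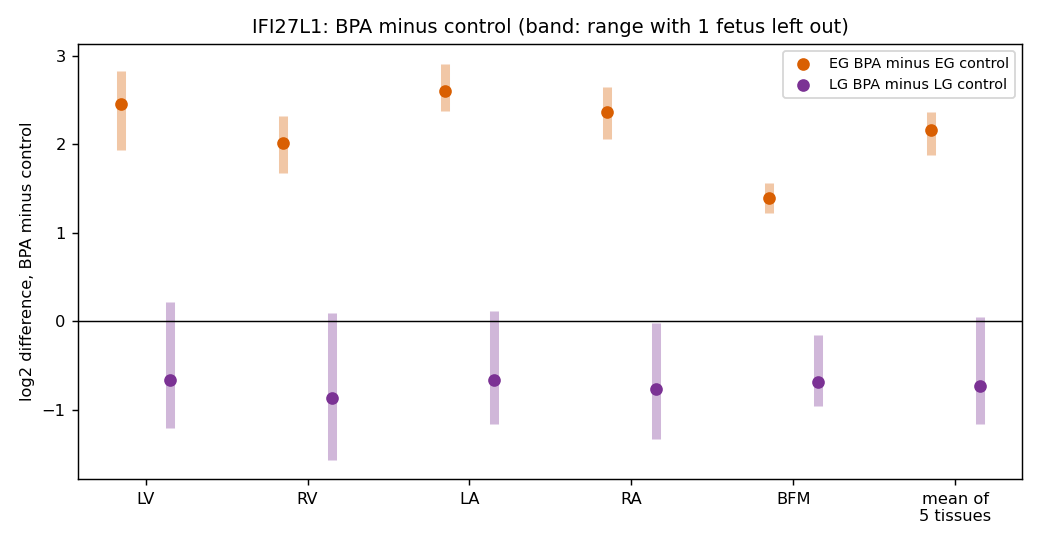
IFI27L1 log2 difference of BPA minus control (y axis) in each tissue and in the mean of the 5 tissues of a fetus (x axis), for the EG and the LG window. Points use all 3 fetuses per group, and bands span the values with 1 fetus left out at a time. The EG bands stay at or above 1.23 in every tissue, and the LG bands in LV, RV, LA and the mean of 5 tissues include 0.

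The controls of the LG and EG windows differed in age, delivery and time of vehicle. The LG minus EG control difference of IFI27L1 was 1.93 (LV), 1.71 (RV), 1.34 (LA), 1.18 (RA) and 0.55 (BFM). Without fetus 7 these values fell to 1.04, 0.75, 0.56, 0.43 and 0.01 in the same order. Fetuses 8 and 9 exceeded all 3 EG controls in LV alone. The EG controls are also the base of the EG BPA difference, so these values are not independent of it.

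Other transcripts of the interferon pathway were looked for next. Most rows of the table carry no gene name in the sources used here, so the usual interferon-stimulated genes, such as those for ISG15, MX1 or OAS enzymes, could not be located, and only 4 transcripts with an interferon-related description were followed. The study described them because they were called in at least one of its comparisons of these same samples, so their calls are not independent evidence. A call here is a change of at least 1 LFC at an unadjusted p of at most 0.01, the criteria of the study. Adjusted p-values are those of limma after Benjamini-Hochberg adjustment over all transcripts tested in the tissue.

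In the EG comparison, 1 of 4 interferon transcripts was called, in LV, and it was lower after BPA. It was IFNW1 (ENSMMUT00000026787), which encodes interferon omega, a type I interferon. Its LV levels were 5.87, 6.18 and 4.30 in EG controls and 3.75, 3.31 and 3.52 after EG BPA. The groups did not overlap, and the LFC was -1.92 (SE 0.56, limma adjusted p = 0.982). The share of LV transcripts separated in this lower direction was not counted. These levels were at percentiles 41.97, 44.53 and 23.94 of their arrays in EG controls and 18.55, 14.91 and 17.04 after EG BPA. In the other 4 tissues IFNW1 varied too little to be tested. The share of all tested transcripts called in the EG comparison was 0.925% (LV), 0.615% (RV), 0.582% (LA), 0.439% (RA) and 0.267% (BFM). The 4 interferon transcripts gave 14 tests over the 5 tissues in this comparison, and none was called higher. Their median LFC was -0.84 (LV), 0.32 (RV), -0.37 (LA), -0.71 (RA) and 0.11 (BFM), with both signs, while the median of all transcripts tested lay between -0.04 and 0.01. The interferon medians rest on only 4, 3, 3, 2 and 2 tested transcripts in the same order of tissues.

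In the LG comparison, 3 of the 14 tests were called, all higher after BPA. The share of all tested transcripts called was 0.84% (LV), 0.549% (RV), 1.09% (LA), 0.439% (RA) and 0.825% (BFM). In LV, a transcript described as interferon-induced protein with tetratricopeptide repeats 1-like (ENSMMUT00000011918, here IFIT1-like), a relative of an antiviral RNA-binding protein, had an LFC of 2.03 (SE 0.62, limma adjusted p = 0.983). In LA, TRIM34 (ENSMMUT00000043889), a member of the tripartite motif family, had an LFC of 1.24 (SE 0.32, limma adjusted p = 0.707). An MHC class I antigen transcript (ENSMMUT00000043987), of the family that presents peptides to T cells, had an LFC of 1.74 in LA (SE 0.45, limma adjusted p = 0.707). None of these passed an adjusted p of 0.05. The median LFC of the interferon transcripts after LG BPA was 0.92 (LV), 0.66 (RV), 1.74 (LA), 0.34 (RA) and 0.66 (BFM), while the median of all transcripts tested lay between -0.05 and 0.06. The interferon medians again rest on 4, 3, 3, 2 and 2 tested transcripts.

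Between the LG and EG controls, 3 of 14 tests of the interferon transcripts were called and all 3 were lower in LG. They were IFIT1-like in LV (LFC -2.01, limma adjusted p = 0.315) and the MHC class I antigen in LV (LFC -2.64, limma adjusted p = 0.302) and LA (LFC -2.02, limma adjusted p = 0.0339). In LV the MHC class I antigen was 5.14, 5.84 and 6.09 in EG controls and 1.19, 4.29 and 3.66 in LG controls. The 1.19 was fetus 7, at percentile 4.18 of its array. The background of calls was 2.95% (LV), 6.68% (RV), 6.78% (LA), 5.47% (RA) and 26.6% (BFM). IFI27L1 was higher in the LG than in the EG controls in the same chambers, as given above.

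By fetus, IFIT1-like departed most from IFI27L1 among the 4 interferon transcripts. Its level in fetus 7, where IFI27L1 was highest, was 5.53 (LV), 4.79 (RV), 4.34 (LA), 4.88 (RA) and 5.40 (BFM). These were the lowest of the 12 fetuses in LV, RV, LA and BFM, and in RA only fetus 5 was lower, at 4.87. Averaged over tissues, IFIT1-like lay -1.81 ± 0.47 (SD over 5 tissues) from the tissue mean in fetus 7 and 2.35 ± 1.54 from it in fetus 3, where IFI27L1 was lowest. Fetus 6, high in IFI27L1, was also above the mean in IFIT1-like (0.94 ± 0.19), while fetus 5 was below it (-1.02 ± 0.37).

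In each of the 4 heart chambers, the array with the highest IFIT1-like level was also the one with the highest level of ALAS2 (ENSMMUT00000011786), the erythroid enzyme that starts heme synthesis. It was fetus 10 in LV (IFIT1-like 9.04, ALAS2 10.79) and LA (9.98 and 12.91), fetus 4 in RV (9.96 and 10.48) and fetus 3 in RA (11.25 and 12.33). In BFM the highest IFIT1-like level was in fetus 11 and the highest ALAS2 level in fetus 10. The IFI27L1 levels on those heart arrays were 6.43 (LV), 6.97 (LA), 6.89 (RV) and 6.03 (RA), and the part of ALAS2 in the IFIT1-like levels was not tested.

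The mean of the within-tissue Pearson correlations with IFI27L1, each over the 12 arrays of a tissue that share the fetuses and groups, was -0.33 for IFIT1-like, -0.04 for IFNW1, 0.10 for TRIM34 and -0.02 for the MHC class I antigen. IFIT1-like had a negative correlation in all 5 tissues. The averages of the other 3 joined values of opposite sign, such as -0.72 (LV) and 0.48 (RV) for the MHC class I antigen and -0.55 (LV) and 0.43 (BFM) for IFNW1. These correlations are descriptions with no test. By fetus, TRIM34 was highest in fetuses 6 and 2 (0.47 ± 0.21 and 0.42 ± 0.49, SD over 5 tissues), which were high and low in IFI27L1, and was -0.14 in fetus 7.

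**Figure D5:**
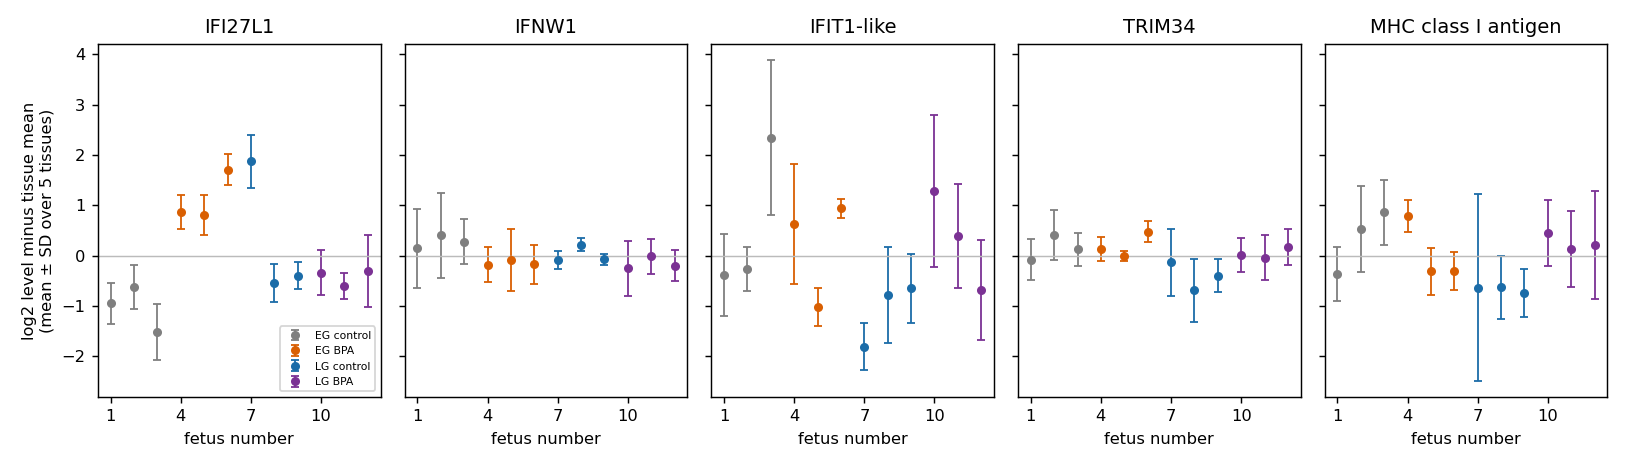
Log2 level minus the tissue mean, averaged over the 5 tissues of a fetus (y axis, points and bars are mean and SD over tissues), by fetus number (x axis), for IFI27L1 and 4 transcripts described as interferon related. IFI27L1 has its highest points in fetuses 6 and 7, and IFIT1-like has its highest point in fetus 3 and its lowest in fetus 7.

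Transcripts that mark blood cells were set beside IFI27L1, because bulk fetal tissue holds blood. The study described these transcripts too, and the cardiac ones further on, because they were called in these samples, so their calls were partly fixed by that choice. In the EG comparison, 2 of 14 leukocyte transcripts were called higher and 2 lower, all in LV, where 13 were tested and the background of calls was 0.925%. Those higher were the cytokines TNF (ENSMMUT00000014825, LFC 1.92) and IL18 (ENSMMUT00000021372, LFC 1.72), and those lower were IL16 (ENSMMUT00000016182, LFC -2.30) and TNFSF8 (ENSMMUT00000007224, LFC -2.67), each with a limma adjusted p of 0.982. None of the 8 tested in RV, the 9 in LA, the 8 in RA and the 2 in BFM was called in the EG comparison. In the LG comparison, 9 of 40 tests were called higher and 1 lower, and 7 of those higher lay in LA, where 9 leukocyte transcripts were tested and the background was 1.09%. The IFI27L1 groups overlapped in that LA comparison, and the median LFC of the leukocyte transcripts tested was 1.25. Correlations of the leukocyte transcripts with IFI27L1 averaged between -0.26 and 0.08 over tissues, with both signs among single tissues, such as -0.62 in LV and 0.59 in RV for TNFSF8.

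The erythroid transcripts ALAS2 and KLF1 (ENSMMUT00000015710, an erythroid transcription factor) averaged correlations of -0.09 and -0.08 with IFI27L1. These averages joined values of opposite sign, such as -0.44 (RA) and 0.26 (BFM) for ALAS2 and -0.45 (LA) and 0.45 (BFM) for KLF1. KLF1 was called lower in LV after EG BPA (LFC -1.44, SE 0.45, limma adjusted p = 0.982). In LA, KLF1 was 5.62, 5.55 and 5.26 in EG controls and 4.52, 4.30 and 4.74 after EG BPA, which was not called. In BFM it was 6.01, 6.20 and 6.19 in EG controls and 6.33, 6.48 and 6.43 after EG BPA. ALAS2 was called higher in LA after LG BPA (LFC 2.81, SE 0.84, limma adjusted p = 0.836), in the same comparison as the leukocyte calls. Its levels there were 12.91 (fetus 10), 9.42 and 9.26 after LG BPA and 6.49, 7.80 and 8.89 in LG controls, so fetus 10 carried much of the difference. The part of blood cells in the IFI27L1 differences was not tested.

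Tissue labels were checked on a pair of cardiac transcripts, whose levels are set side by side across separately normalized tissues and so are approximate. Myh6 (ENSMMUT00000020702, alpha myosin heavy chain) ran from 14.30 to 14.96 on the 24 atrial arrays and from 6.28 to 10.60 in BFM. In LV it ranged from 5.56 to 14.43 and in RV from 5.51 to 14.23. BMP10 (ENSMMUT00000021101), a growth factor of the right atrium, ran from 12.07 to 13.53 in RA and reached at most 7.96 elsewhere. That highest value was the RV of fetus 4. In RV, BMP10 was 4.41, 4.41 and 4.18 in EG controls and 7.96, 6.02 and 4.96 after EG BPA, which was called higher (LFC 1.98, SE 0.57, limma adjusted p = 0.9998). Among these EG BPA fetuses BMP10 was highest in fetus 4 and IFI27L1 in fetus 6, and the part of BMP10 in the IFI27L1 difference was not tested. Myh6 differed by 2.62 (SE 2.16) in RV after EG BPA, which was not called, and was called lower in LV after LG BPA (LFC -5.39, SE 1.47, limma adjusted p = 0.983). These transcripts set the labelled atria apart from BFM and RA apart from the other tissues. The labels of the ventricles and BFM were not checked further, since skeletal muscle and ventricular markers could not be matched to rows. Median correlations of an array with the others of its tissue ran from 0.848 to 0.970 in RV, from 0.858 to 0.930 in LV and from 0.943 to 0.974 over LA, RA and BFM, so the lowest values lay in the ventricles.

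Few transcripts followed IFI27L1 closely. The 5 with the highest mean within-tissue correlation were ENSMMUT00000022738 (0.58), ENSMMUT00000026556 (0.55), ENSMMUT00000039576 (0.55), ENSMMUT00000043375 (0.54) and ENSMMUT00000003168 (0.54), each over 12 arrays in each of 5 tissues. The sources used here give no gene name for any of them. With the 12 fetuses averaged over tissues by group, ENSMMUT00000022738 was 5.76 in EG controls and 6.25 after EG BPA, and 5.83 in LG controls and 6.21 after LG BPA, but its fetuses overlapped between BPA and control in the LG window, and in EG the difference lay mostly in fetus 6 (0.83 from the tissue mean, beside -0.03 and -0.10 in fetuses 4 and 5). ENSMMUT00000026556 was 1.97 above the tissue mean in fetus 7 and -0.49, 0.29 and 0.16 from it in EG BPA fetuses 4 to 6, so fetus 7 stood out more than the EG BPA fetuses did.

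The choice of these transcripts depended on the measure. None of the 5 was among the 5 most similar on ranks, 1 of 5 was when deviations from group means were used, and 1 of 5 was in the 4 heart chambers alone. The most opposite transcript was ENSMMUT00000013214, at -0.70. Its correlation ran from -0.53 in LV to -0.85 in BFM, and it was also the most opposite one on ranks and in the heart alone. Its mean level was 9.28 in EG controls, 8.76 after EG BPA, 8.87 in LG controls and 8.87 after LG BPA. The next was ENSMMUT00000002365 (-0.54), with 9.15 in EG controls and 8.42 after EG BPA. On deviations from group means ENSMMUT00000002365 was at -0.32, and in fetus 7 it lay 0.10 above the tissue mean. These 2 are also without a gene name here.

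When the 5 tissues of a fetus were averaged and the mean level was fitted over the 12 fetuses, 22 of 4987 transcripts (0.441%) met the criteria for EG BPA against control, 10 higher and 12 lower. Nothing is read from these counts about IFI27L1, which the contrast chose. No transcript reached a limma adjusted p of 0.05 in this comparison, and 196 had an unadjusted p of at most 0.05.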

How the data were processed

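The authors extracted signals of a custom NimbleGen rhesus array (design from Ensembl Mmul_1 transcripts) with NimbleScan and summarised them by robust multi-array averaging within each tissue. The deposited values are log2 levels of 26149 transcripts. LV and RV cDNA was not amplified, LA and RA cDNA was amplified by PCR, and each chamber had its own slide, so slide and tissue cannot be told apart between chambers. Precision is limited by the number of arrays, and scanner intensities were not used here.

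Means of the 4 groups were fitted in each tissue with limma 3.58.1 in R 4.3.3 and transcripts whose interquartile range over the 12 arrays was below 0.5 were left out. The fit was tested on simulated data. Columns of the authors' comparisons were not used. The transcript and the lists were chosen with earlier results of these data known. Named transcripts were IFI27L1, the 5 most like and 2 most opposite in mean within-tissue correlation, and the described interferon, blood and cardiac transcripts. Of 184 listed symbols, 0 could be matched to rows, since the rows are transcript identifiers and the symbols were paired with gene identifiers only. That 0 was fixed in advance and does not show which genes the array holds. The fetus number in the labels pairs arrays over tissues. Deviations from group means of the same fetus correlated at medians of 0.022 to 0.211 between tissues. For different fetuses the medians were -0.023 to -2e-04. Single fetuses went as low as -0.122 (RA with BFM), and in LV with BFM only 1 fetus exceeded 0.1. The pairing by number was therefore weakly supported for some pairs of tissues.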

Additional observations from a re-analysis of the deposited data

How the results depend on the processing

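The direction of the IFI27L1 differences after EG BPA was the same under every alternative run, and the LG direction changed where the text above says so. The recurrence was 0.758 on ranks and 0.959 over the EG fetuses alone. With fetus 7 left out it was 0.451 for deviations from group means and -0.06 over the LG fetuses alone. These settings by window and fetus were chosen after seeing the data. With the fetus as a replicate block over 60 arrays, the EG comparison called 12 transcripts in place of 22, and the SE of IFI27L1 was 0.33 in place of 0.52. The block used 1 correlation for all transcripts (0.123), below that of IFI27L1 within groups (0.816), so the 0.33 is too small for this transcript. It pairs the tissues of a fetus, while EG BPA and EG control are different fetuses. With an interquartile range of at least 1, calls in LV, RV, LA, RA and BFM were 77, 21, 14, 8 and 9 for EG BPA, 78, 21, 21, 8 and 44 for LG BPA, and 219, 392, 242 and 251 in LV, RV, LA and RA between controls. At a limma adjusted p of at most 0.05, they were 0 in all 5 tissues for EG BPA (854, 413, 324, 220 and 215 at an unadjusted p of at most 0.05), 1, 0, 0, 0 and 1 for LG BPA (801, 321, 432, 267 and 458), and 0 (1865 unadjusted), 238, 197 and 187 in LV, RV, LA and RA between controls. With only the 6 arrays of a comparison, EG calls were 201 in RV and 72 in LA, LG calls 23 in RV and 45 in BFM, and LV control calls 286. No filter gave 63 EG calls in RA, and a further quantile normalization 15 in BFM. Leaving out 1 fetus gave 109 (without 2) to 249 (without 1), 36 (without 4) to 74, 38 to 78 (without 1), 28 to 81 (without 2) and 20 to 36 (without 2) EG calls in LV, RV, LA, RA and BFM. It gave 134 to 243 (without 11), 49 to 149 (without 11), 68 to 140 (without 11), 28 to 145 (without 10) and 64 to 244 (without 11) LG calls. Between controls it gave 474 (without 8) to 1501 (without 9) in RV and 350 (without 3) to 532 in LA. The cause was not tested.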
